A study of Mus musculus with 12 samples.

Results

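Matrix metalloproteinases (MMPs), the ADAMTS proteases, the ADAMTS-like proteins and the tissue inhibitors of metalloproteinases (TIMPs) were followed in differentiating 3T3-L1 cells with and without PRMT1. Members were taken by gene name (Mmp, Timp, Adamts or Adamtsl and a number), which gave 51 of the 39423 genes in the count table. Of these, 23 had a mean of at least 1 FPKM (reads scaled by gene length and by the library's counted reads) over the 12 libraries and are described one by one. The last gene inside that limit was Mmp9 with a mean of 1.40 FPKM, and the first outside was Adamts7 with 0.893 FPKM.

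3T3-L1 is an established mouse preadipocyte line, and the labels call the source preadipocytes. Cells carried a control siRNA (labelled NC, here siCtrl) or an siRNA against PRMT1 (siPRMT1), an arginine methyltransferase, and all of them received DMI (MDI in the labels), a cocktail of dexamethasone, 3-isobutyl-1-methylxanthine and insulin that starts adipogenesis. mRNA was sequenced after 24 h (day 1) or 72 h (day 3), with 3 libraries for each of the 4 groups. The study had 3 PRMT1 siRNAs and does not name the one used for sequencing, so a response to knockdown and a response to 1 siRNA sequence cannot be told apart. There was no library from before DMI, and the labels do not say whether replicates were separate cultures, so p-values measure only the spread between these libraries.

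MMPs are secreted or membrane-bound zinc proteases that cut collagens, gelatin and other matrix proteins, and most are made as inactive proenzymes. ADAMTS proteases process procollagens and cut proteoglycans such as versican and aggrecan, ADAMTS-like proteins lack the protease domain, and TIMPs bind and inhibit MMPs and, in the case of TIMP3, also ADAMTS proteases. In adipogenesis, preadipocytes replace a fibroblastic matrix with a basement membrane, and MMP14, the membrane-type protease that together with TIMP2 activates pro-MMP2, is known for its part in adipose tissue.

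The libraries held 15116462 to 42357137 counts on genes, and a count of 0 in a library allows up to 3 counts, which covers counting error only. Prmt1 itself was 2.15-fold lower in siPRMT1 cells at day 1 (41.3 ± 2.61 against 85.8 ± 4.71 FPKM, SD, n = 3) and 1.85-fold lower at day 3 (67.4 ± 4.92 against 124 ± 15.1 FPKM, SD, n = 3). The library siCtrl replicate 3 of day 1 stood apart from its replicates, with a chi-square per gene of 50.6 and 30.8 against the others, where all other pairs of replicates had 4.14 to 15.8. Some calls that changed when it was left out are named below. Other values, such as those of Mmp2 at day 1, are given only with it. The 6 adipocyte markers (Fabp4, Adipoq, Plin1, Lpl, Cebpa and Pparg) summed to 144 to 149 FPKM in siCtrl and 109 to 123 FPKM in siPRMT1 libraries at day 1, and to 2068 to 2239 and 1627 to 1843 FPKM at day 3. The 6 preadipocyte or fibroblast markers (Pdgfra, Pdgfrb, Dlk1, Thy1, Col1a1 and Col1a2) summed to 1040 to 1179 and 988 to 1048 FPKM at day 1, and to 459 to 502 and 557 to 648 FPKM at day 3. Markers of macrophages, endothelial cells and neutrophils, other sources of MMPs in fat tissue, summed to at most 0.59, 0.87 and 1.08 FPKM in any library, and Ptprc and Mpo, defining genes of leukocytes and of neutrophils, had no count. These are bulk RNA levels, in which fewer cells that make a transcript and less transcript per cell cannot be told apart.

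On chromosome 9 of GRCm38, 10 of the MMP genes lie between 7272514 and 7699585, together with 2 genes of the table that are no members, and 2 of the MMP genes, Mmp3 and Mmp13, carried nearly all of the cluster's reads. Over the 12 libraries, Mmp3 had 997 counts and Mmp13 had 234, whereas the other 8 (Mmp12, Mmp1b, Mmp1a, Mmp10, Mmp8, Mmp27, Mmp20 and Mmp7) had 0 to 29. AP-1 (Fos and Jun) is a textbook regulator of several MMP genes. For all members, the window from 250 bases before to 50 bases after each RefSeq start (GRCm38.p6) was searched for the AP-1 letters TGANTCA, which read the same on both strands, and for the TATA letters TATAAA on either strand. The letters of the AP-1 and TATA motifs cannot overlap. Of the 51 members, 36 had such a window, 16 of them among the 23 genes with at least 1 FPKM. Of these, 8 members (22.2%) held the AP-1 letters, against 8.97% of all 27025 genes with a window. The TATA letters stood in 12 members (33.3%), against 15.7% of all genes, and both motifs in 8 (22.2%), against 2.08%. All 8 members with AP-1 letters belonged to the cluster on chromosome 9, and none of the other 26 members had them; the cluster was set apart after these matches had been seen. The promoters of the pair with reads are shown for the 100 bases before the start, 5′ to 3′, with the AP-1 and TATA letters in capitals. That of Mmp3, chr9:7445722-7445821 on the plus strand, has AP-1 letters at -46 to -40 from the start. That of Mmp13, chr9:7272414-7272513 on the plus strand, has them at -35 to -29.
Mmp3: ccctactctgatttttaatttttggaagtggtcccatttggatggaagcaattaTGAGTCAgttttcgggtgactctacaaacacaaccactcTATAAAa
Mmp13: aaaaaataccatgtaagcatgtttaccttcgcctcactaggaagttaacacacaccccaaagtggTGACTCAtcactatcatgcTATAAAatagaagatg

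The 6 neighbours with a match to TGANTCA, genes with 0 to 14 counts in all libraries together, are shown as well. The search allowed any middle base, which was A in Mmp20, C in Mmp13 and G in Mmp3 and the other neighbours. A middle C and a middle G are the same site read on opposite strands. Each line gives the AP-1 letters in capitals with 12 bases on either side, 5′ to 3′ on the gene's own strand.
Mmp12: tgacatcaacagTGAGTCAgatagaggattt
Mmp1b: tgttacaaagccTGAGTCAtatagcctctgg
Mmp1a: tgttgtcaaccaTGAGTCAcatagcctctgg
Mmp10: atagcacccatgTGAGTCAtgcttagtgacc
Mmp20: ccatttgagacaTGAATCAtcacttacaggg
Mmp7: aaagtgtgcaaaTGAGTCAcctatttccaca
These windows lie on chromosome 9 at 7347318 to 7347348 for Mmp12 (before its second RefSeq start), 7388101 to 7388131 for Mmp1b (minus strand), 7464056 to 7464086 for Mmp1a, 7502267 to 7502297 for Mmp10, 7628124 to 7628154 for Mmp20 and 7692015 to 7692045 for Mmp7. Mmp1a and Mmp1b are similar copies that encode interstitial collagenases, so the few counts of each are uncertain where reads could fit both. A match of letters is a description of the sequence and no measured binding.

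**Figure D1:**
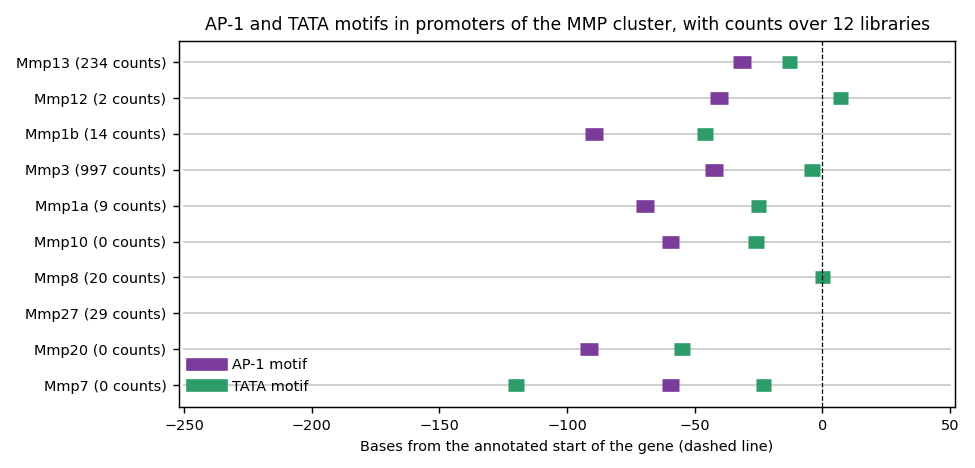
Positions of AP-1 motifs (purple) and TATA motifs (green) in the promoter windows of the 10 MMP genes on chromosome 9, in order along the chromosome, against the distance in bases from the RefSeq start whose window holds the match; labels give each gene's counts over 12 libraries. In all, 8 promoters hold a match to the AP-1 pattern TGANTCA. Reads came almost only from Mmp3 (997 counts) and Mmp13 (234 counts).

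The family as a whole was dominated by a few transcripts. Mmp2 was highest in each group, and Mmp2, Adamts1, Timp2, Mmp14 and Timp1 together made up 85.1% ± 0.169 (SD, n = 3) of the members' summed FPKM in siCtrl cells at day 1. That share was 84.4% ± 0.195 in siPRMT1 cells at day 1, 72.5% ± 0.657 in siCtrl cells at day 3 and 78.2% ± 0.301 in siPRMT1 cells at day 3. The summed level of all members was 1148 ± 62.1 FPKM in siCtrl and 1076 ± 28.8 FPKM in siPRMT1 cells at day 1 (SD, n = 3). At day 3, it was 605 ± 22.4 FPKM in siCtrl and 791 ± 47.4 FPKM in siPRMT1 cells. The libraries met at day 1, from 1096 to 1217 FPKM in siCtrl and from 1043 to 1096 FPKM in siPRMT1 cells, and were apart at day 3, from 589 to 631 and from 736 to 821 FPKM. At the other end, 28 members stayed under a mean of 1 FPKM: 6 of 0.1 to 1 FPKM, 16 below 0.1 FPKM with at least 1 count, and 6 without a count in any library.

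**Figure D2:**
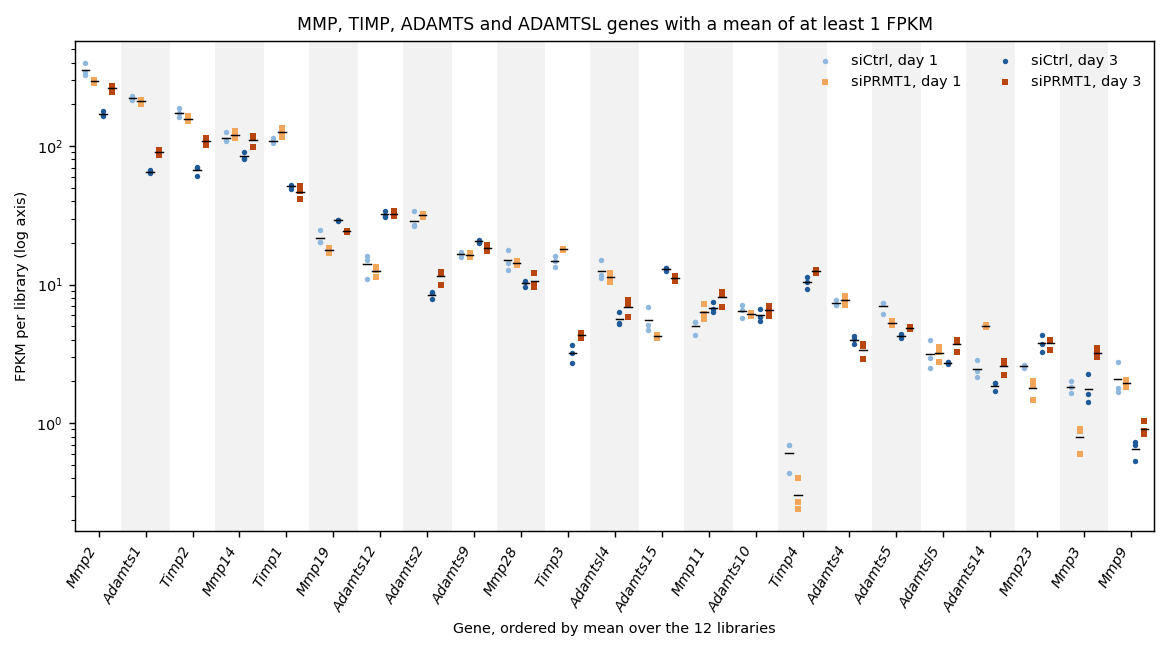
FPKM of the 23 members with a mean of at least 1 FPKM, on a log axis; each point is 1 of 3 libraries and each black bar the group mean, for siCtrl (circles) and siPRMT1 (squares) at day 1 (pale) and day 3 (dark). Mmp2 leads in all groups, and at day 3 its siPRMT1 libraries (247 to 270 FPKM) lie above its siCtrl libraries (164 to 180 FPKM).

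The first question was what siPRMT1 did to these genes at day 1. Of the 29 members that passed edgeR's filter on low counts, 2 were called higher and 2 lower, where a call needs a log2 fold change beyond 0.5 in either direction and a p, adjusted over all genes by Benjamini-Hochberg, under 0.05. Over all 13689 genes tested, 1.95% were called higher and 1.61% lower. The median log2 fold change was -0.12 for the members and 0.0096 for all genes tested, and 18 of 29 members were below 0. The FPKM of the siCtrl and siPRMT1 libraries did not overlap for 14 of the 29 members, against 32.2% of all genes tested.

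Adamts14, a procollagen N-proteinase that trims fibrillar procollagens (chromosome 10, 61197112 to 61273438, minus strand), showed the firmest response at day 1. Its level was 2.16, 2.38 and 2.87 FPKM in the siCtrl and 4.95, 5.15 and 5.08 FPKM in the siPRMT1 libraries. All siPRMT1 libraries were above all siCtrl libraries. The log2 fold change was 0.99 (SE 0.11, adjusted p = 0.0035 from edgeR), and the gene was called without any 1 of the 6 libraries. Its closest relative, Adamts2, was not called at 26.8, 26.4 and 33.9 FPKM in siCtrl and 32.2, 30.6 and 32.3 FPKM in siPRMT1 cells (log2 fold change 0.08, SE 0.10, adjusted p = 0.67), and Adamts3, the third procollagen N-proteinase, had 2 counts in all.

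Mmp3, or stromelysin 1 (chromosome 9, 7445822 to 7455975, plus strand), is a protease of broad range that also activates other pro-MMPs. It was lower in siPRMT1 than in siCtrl cells at day 1. It stood at 1.82, 1.66 and 2.01 FPKM in siCtrl and at 0.88, 0.91 and 0.60 FPKM in siPRMT1 cells. Every siPRMT1 library was below every siCtrl library. The log2 fold change was -1.25 (SE 0.19, adjusted p = 0.011 from edgeR), and the adjusted p rose to as much as 0.051 without siPRMT1 replicate 1 or 3, which ends the call. Mmp11 (stromelysin 3), the other stromelysin with at least 1 FPKM, was at 4.34 to 5.41 FPKM in siCtrl and 5.63 to 7.23 FPKM in siPRMT1 cells (log2 fold change 0.28, SE 0.13, adjusted p = 0.22).

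The other calls at day 1 were less firm. Mmp23, a membrane-anchored MMP without the usual hemopexin domain, was at 2.51, 2.63 and 2.60 FPKM in siCtrl and 1.89, 1.46 and 2.0 FPKM in siPRMT1 cells (log2 fold change -0.58, SE 0.14, adjusted p = 0.041). It kept its call in 1 of the 6 fits that left out a library, with adjusted p of 0.0087 to 0.13, and it shares 70 exon bases with Mib2 on the same strand. Adamts16 was called higher (log2 fold change 1.19, SE 0.27, adjusted p = 0.035) at a level of 0.03 to 0.06 FPKM in siCtrl and 0.12 to 0.13 FPKM in siPRMT1 cells, or 6 to 29 counts per library. It also kept its call in 1 of 6 such fits, the one without siCtrl replicate 3, and DESeq2 did not call it.

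Several members moved below the limit for a call at day 1. Mmp2, also called gelatinase A, which cuts gelatin and basement membrane collagen (chromosome 8, 92827291 to 92853421, plus strand), was at 324, 341 and 398 FPKM in siCtrl and 302, 284 and 297 FPKM in siPRMT1 cells. Its log2 fold change of -0.32 (SE 0.07, adjusted p = 0.040) was under the fold limit, although the groups did not overlap. Adamts5, an aggrecanase (chromosome 16, 85858157 to 85901125, minus strand), was at 7.40, 7.34 and 6.11 FPKM in siCtrl and 5.48, 5.40 and 5.08 FPKM in siPRMT1 cells. Its log2 fold change was -0.44 (SE 0.10, adjusted p = 0.033), and it was called lower without siCtrl replicate 3, the library that stood apart. Timp4 was at 0.44, 0.70 and 0.70 FPKM in siCtrl and 0.27, 0.40 and 0.24 FPKM in siPRMT1 cells, on 11 to 35 counts per library (log2 fold change -0.99, SE 0.30, adjusted p = 0.087). Adamtsl3 (log2 fold change -0.75, SE 0.21, adjusted p = 0.063) was called lower by DESeq2 and without siCtrl replicate 3. The remaining members with at least 1 FPKM had log2 fold changes between -0.44 (Adamts15) and 0.28 (Mmp11), with adjusted p of 0.058 or more.

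At day 3, siPRMT1 cells held more of several MMP and TIMP transcripts. Of 30 members tested, 4 were called higher and none lower, against 2.84% called higher and 3.8% called lower of all 14039 genes tested. With edgeR, 17 members were higher and 5 lower at an unadjusted p under 0.05, counts that were not taken over all genes. DESeq2 and the 3 limma fits on FPKM also called none lower. The members' median log2 fold change was 0.28, that of all genes tested 0.0073, and 23 of 30 members were above 0. Groups did not overlap for 18 of 30 members, against 34.8% of all genes tested. In the same libraries, the sum of the preadipocyte or fibroblast markers was higher and that of the adipocyte markers lower in siPRMT1 cells (ranges above). Of the 6 preadipocyte or fibroblast markers, 5 had a log2 fold change above 0, 3 did not overlap and 1 was called. Dlk1 overlapped, from 19.7 to 23.4 FPKM in siCtrl and from 16.3 to 23.0 FPKM in siPRMT1 cells. All 6 adipocyte markers were below 0 and 2 were called. The part of these markers in the results was not tested.

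Mmp2 was higher in siPRMT1 than in siCtrl cells at day 3. It was at 167, 180 and 164 FPKM in siCtrl and 247, 268 and 270 FPKM in siPRMT1 cells. The groups were clearly apart, with all siPRMT1 libraries above all siCtrl libraries. The log2 fold change was 0.61 (SE 0.07, 1.53-fold, adjusted p = 3.3e-05 from edgeR), called without any 1 of the 6 libraries and in all 10 other fits.

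Timp2 (chromosome 11, 118301061 to 118355411, minus strand) inhibits MMPs and with MMP14 also takes part in the activation of pro-MMP2. Like Mmp2, it was higher in siPRMT1 than in siCtrl cells at day 3. It was at 70.1, 69.8 and 60.9 FPKM in siCtrl and 101, 114 and 112 FPKM in siPRMT1 cells, again without overlap. The log2 fold change was 0.70 (SE 0.08, 1.63-fold, adjusted p = 2.0e-05), called without any 1 library and in all 10 other fits. At day 3, the FPKM of Mmp2 over that of Timp2 gave a ratio of 2.55 ± 0.162 for siCtrl and of 2.39 ± 0.0421 for siPRMT1 (SD, n = 3), and the libraries of the groups overlapped (2.38 to 2.70 and 2.35 to 2.43). Mmp14 (chromosome 14, 54431598 to 54442456, plus strand) was at 82.6, 91.4 and 81.3 FPKM in siCtrl and 99.2, 118 and 114 FPKM in siPRMT1 cells, without overlap. Its log2 fold change of 0.37 (SE 0.08, adjusted p = 0.0047) stayed under the fold limit.

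Mmp3 was on the other side of siCtrl at day 3. It was at 1.63, 1.43 and 2.25 FPKM in siCtrl and 3.47, 2.98 and 3.15 FPKM in siPRMT1 cells. All siPRMT1 libraries were above all siCtrl libraries, the reverse of day 1. The log2 fold change was 0.81 (SE 0.16, 1.76-fold, adjusted p = 0.0030), called without any 1 library and in 9 of 10 other fits.

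Mmp13, the main interstitial collagenase of the mouse and the only collagenase that could be tested (chromosome 9, 7272514 to 7283333, plus strand), was called higher at a low level. It was at 0.35, 0.42 and 0.31 FPKM in siCtrl and 0.62, 0.82 and 0.59 FPKM in siPRMT1 cells, on 17 to 57 counts per library. The groups did not overlap. The log2 fold change was 0.93 (SE 0.23, adjusted p = 0.012), and the call was lost without siCtrl replicate 3 or without siPRMT1 replicate 2 (adjusted p up to 0.074) and with DESeq2. At day 1, Mmp13 had 4 to 12 counts per library and did not pass the filter.

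At day 3, 7 more members were higher with an adjusted p under 0.05 and a log2 fold change under the limit of 0.5. Adamts1, an inflammation-inducible protease that cuts versican (chromosome 16, 85793827 to 85803113, minus strand), was the most abundant of them. It was at 63.5, 66.4 and 66.6 FPKM in siCtrl and 86.6, 94.2 and 92.4 FPKM in siPRMT1 cells (log2 fold change 0.47, SE 0.07, adjusted p = 2.1e-04). The others were Mmp14, given above, Adamts2 at 0.44 (adjusted p = 0.0032), Adamtsl5 at 0.44 (0.0080), Timp3 at 0.42 (0.011), Adamts14 at 0.46 (0.012) and Adamts6 at 0.48 (0.025). Without siPRMT1 replicate 1, the number of members called higher was 9 in place of 4. In that fit, 399 of all 14363 genes tested were called higher, beside 399 of 14039 with all libraries. With no fold limit, 11 of 30 members were higher and 2 lower, against 1058 and 1255 of all 14039 genes tested. On the lower side, Mmp19, a secreted MMP, at -0.27 (adjusted p = 0.011) and Adamts15, an aggrecanase, at -0.23 (adjusted p = 0.034) were under the fold limit. Mmp19 shares 888 of its 3456 exon bases with Tmem198b on the opposite strand, and the strand setting of the counting is not given in the sources used here.

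The inhibitors did not move as 1 group at day 3. Timp2 was called higher and Timp3, a matrix-bound inhibitor of MMPs and ADAMTS proteases, was at 3.67, 2.73 and 3.19 FPKM in siCtrl and 4.12, 4.46 and 4.33 FPKM in siPRMT1 cells. Timp1 was at 51.6, 52.3 and 49.4 FPKM in siCtrl and 41.2, 51.6 and 47.1 FPKM in siPRMT1 cells, which overlapped (log2 fold change -0.14, SE 0.09, adjusted p = 0.30). Timp4 was at 9.37, 10.4 and 11.4 FPKM in siCtrl and 12.1, 12.8 and 12.4 FPKM in siPRMT1 cells, without overlap but not called (log2 fold change 0.25, SE 0.09, adjusted p = 0.076). The sum of all 4 inhibitors at day 3 was 132 ± 5.90 FPKM in siCtrl and 173 ± 12.4 FPKM in siPRMT1 cells (SD, n = 3).

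**Figure D3:**
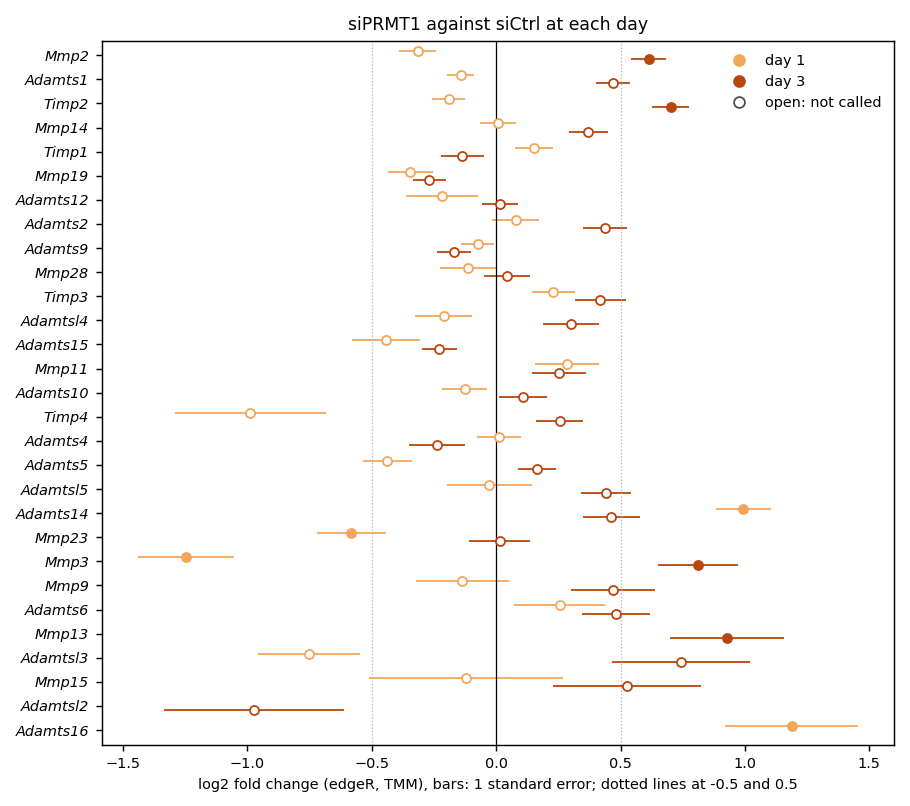
Log2 fold change of siPRMT1 against siCtrl at day 1 (orange) and day 3 (brown) for the 23 members with at least 1 FPKM and 6 rarer members called in a comparison; bars are 1 standard error, filled points are called and dotted lines mark 0.5 and -0.5. Mmp3 lies at -1.25 at day 1 and 0.81 at day 3, and Mmp2 and Timp2 are called at day 3 and not at day 1.

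Whether the response to siPRMT1 differed between the days was tested as the interaction of siRNA and day over all 12 libraries. Of 31 members tested, 7 had a higher and 1 had a lower response at day 3 than at day 1, against 4.77% and 3.47% of all 14612 genes tested. The difference of log2 fold changes, day 3 minus day 1, was 2.08 for Mmp3 (SE 0.26, adjusted p = 1.7e-04 from edgeR), which was 2.37-fold lower at day 1 and 1.76-fold higher at day 3. It was 0.95 for Mmp2 (SE 0.11, adjusted p = 7.3e-05), 0.91 for Timp2 (SE 0.11, adjusted p = 1.1e-04) and 0.63 for Adamts1 (SE 0.08, adjusted p = 1.4e-04). Mmp2, Timp2 and Adamts1 were below 0 at day 1, none of them called, and above 0 at day 3. Mmp14 had a difference of 0.39 (SE 0.12, adjusted p = 0.043), under the fold limit.

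Among less abundant members, Adamts5 (0.62, SE 0.11, adjusted p = 0.0028), Timp4 (1.24, SE 0.28, adjusted p = 0.011) and Adamtsl3 (1.51, SE 0.38, adjusted p = 0.017) also had a higher response at day 3. At day 3, Adamts5 was at 4.41, 4.14 and 4.31 FPKM in siCtrl and 4.76, 4.94 and 4.77 FPKM in siPRMT1 cells. Adamtsl3 lost the call without siPRMT1 replicate 2 of day 3. Adamtsl2, an ADAMTS-like protein known to bind the TGF-beta-binding protein LTBP1, was the single member with a lower response at day 3 (-1.69, SE 0.48, adjusted p = 0.032). It had 5 to 14 counts per library and kept that call in 6 of 12 fits that left out a library. The response of Adamts14, called at day 1 and not at day 3, was not shown to differ between the days (-0.51, SE 0.17, adjusted p = 0.062), and Mmp23 likewise missed the limit (0.61, SE 0.19, adjusted p = 0.051).

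**Figure D4:**
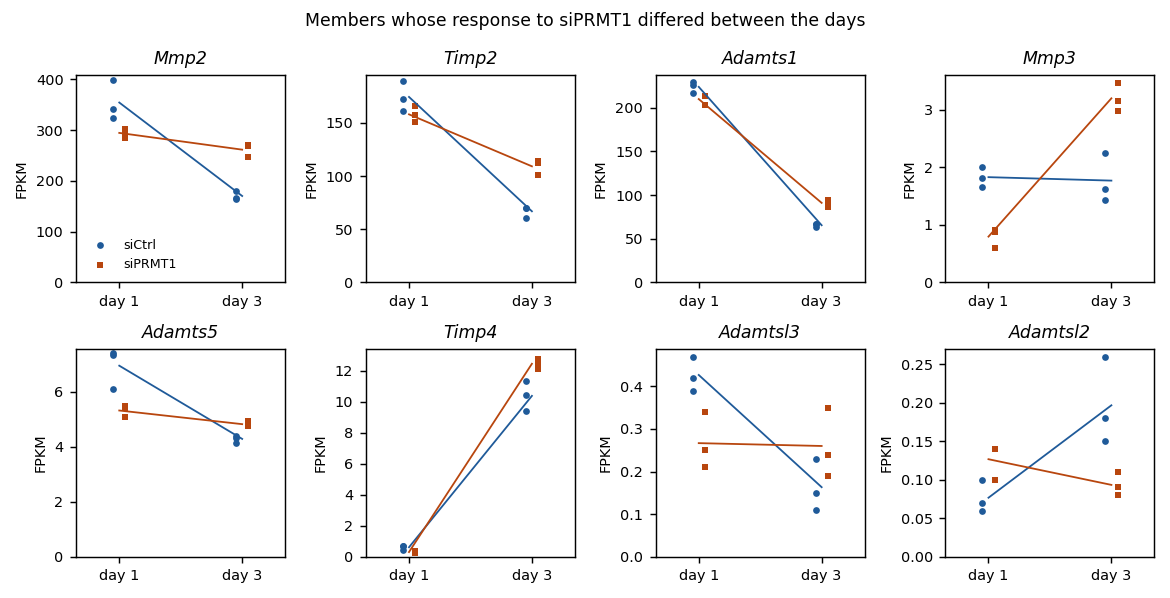
FPKM per library of the 8 members whose response to siPRMT1 differed between the days, for siCtrl (blue circles) and siPRMT1 (brown squares) with lines joining the means of 3 libraries; each panel has its own axis from 0. The lines cross in each panel; for Mmp3, siPRMT1 goes from 0.60 to 0.91 FPKM at day 1 to 2.98 to 3.47 FPKM at day 3.

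The course from day 1 to day 3 was taken within each siRNA group. These comparisons share libraries with the knockdown comparisons, so their values are given side by side and are not independent of those above. In siCtrl cells, 14 of 30 members tested were called lower and 5 higher at day 3, against 20.4% called lower and 22.7% called higher of all 13829 genes. In siPRMT1 cells, 11 of 30 were called lower and 7 higher, against 17.4% and 19% of all 14224 genes. The median log2 change of the members was -0.37 in siCtrl and -0.14 in siPRMT1 cells, and that of all genes -0.0042 and 0.0022. In both groups, 9 genes were called lower, which is 64.3% of the siCtrl and 81.8% of the siPRMT1 list, and 4 were called higher in both (80% and 57.1%). The same overlap was not counted over all genes, so these shares cannot be read as particular to the members. Adamtsl2 and Adamts16, each tested in only 1 of the siRNA groups, count as not shared. Over the same days, the preadipocyte or fibroblast markers fell and the adipocyte markers rose in both groups, as their ranges above show; their part in the course of the members was not tested.

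Among the inhibitors, Timp1, Timp2 and Timp3 fell and Timp4 rose in both groups. Timp3 had the steepest fall of the described members in both groups, from 16.2, 14.7 and 13.4 FPKM at day 1 to 3.67, 2.73 and 3.19 FPKM at day 3 in siCtrl cells (log2 change -2.27, SE 0.13, adjusted p = 2.9e-07) and from 17.8, 18.1 and 17.9 to 4.12, 4.46 and 4.33 FPKM in siPRMT1 cells (-2.07, SE 0.06, adjusted p = 8.7e-12). Timp1 went from 113, 111 and 104 to 51.6, 52.3 and 49.4 FPKM in siCtrl cells (-1.17, SE 0.08) and from 128, 116 and 134 to 41.2, 51.6 and 47.1 FPKM in siPRMT1 cells (-1.45, SE 0.08). Timp4 was the member with the largest change of all, from 0.44 to 0.70 FPKM at day 1 to 9.37 to 11.4 FPKM at day 3 in siCtrl cells, a 16.7-fold rise (log2 change 4.07, SE 0.19, adjusted p = 1.1e-07). In siPRMT1 cells it went from 0.24 to 0.40 FPKM to 12.1 to 12.8 FPKM, 39.6-fold (5.31, SE 0.14, adjusted p = 2.0e-12). Timp4 lies within Syn2 on the opposite strand without a shared exon base, as Timp1 lies within Syn1 and Timp3 within Syn3.

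Both gelatinases and Mmp14 were called lower at day 3 in siCtrl cells. Mmp2 fell by 1.13 on the log2 scale in siCtrl cells (SE 0.09, adjusted p = 3.8e-06) and was not called in siPRMT1 cells (-0.18, SE 0.05, adjusted p = 0.0087); the interaction given above is the test of that difference. Mmp9, gelatinase B, was at 1.78, 1.69 and 2.77 FPKM at day 1 and 0.73, 0.53 and 0.69 FPKM at day 3 in siCtrl cells (-1.72, SE 0.23). In siPRMT1 cells it was at 1.82, 2.04 and 1.97 FPKM and then 0.83, 1.03 and 0.88 FPKM (-1.09, SE 0.12), and the difference of the courses did not pass (0.63, SE 0.27, adjusted p = 0.15). Mmp14 was called lower in siCtrl cells (-0.50, SE 0.09), but not without siCtrl replicate 3 of day 1 nor with limma on FPKM, and it was not called in siPRMT1 cells (-0.13, SE 0.07). Mmp28, an MMP known from keratinocytes, was called lower in siCtrl cells (-0.61, SE 0.13), also not without that library, and reached -0.44 (SE 0.08) in siPRMT1 cells; 471 of its 3528 exon bases are shared with an opposite-strand gene.

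Mmp3 and Mmp13, the pair read from the cluster on chromosome 9, differed in their course. Mmp3 did not pass in siCtrl cells (log2 change -0.10, SE 0.20, adjusted p = 0.69) and rose 3.96-fold in siPRMT1 cells (1.98, SE 0.17, adjusted p = 1.8e-07). Mmp13 rose in both, from 0.04 to 0.1 FPKM to 0.31 to 0.42 FPKM in siCtrl cells (2.30, SE 0.40, adjusted p = 6.4e-04) and from 0.14 to 0.17 FPKM to 0.59 to 0.82 FPKM in siPRMT1 cells (2.1, SE 0.25, adjusted p = 5.3e-06). Its response to siPRMT1 was not shown to differ between the days (-0.20, SE 0.45, adjusted p = 0.82).

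The ADAMTS proteases did not all move in 1 direction. Of the proteases that cut versican and aggrecan, Adamts1 fell by 1.84 in siCtrl (SE 0.07) and by 1.22 in siPRMT1 cells (SE 0.06) on the log2 scale, and Adamts4 fell by 0.95 (SE 0.11) and 1.19 (SE 0.10). Adamts5 fell by 0.77 in siCtrl cells (SE 0.10) and was not called in siPRMT1 cells (-0.15, SE 0.07). Adamts15 rose instead, from 4.70, 5.10 and 6.94 to 12.6, 13.1 and 13.2 FPKM in siCtrl cells (1.15, SE 0.14) and from 4.31, 4.23 and 4.15 to 10.6, 11.2 and 11.5 FPKM in siPRMT1 cells (1.38, SE 0.06). Adamts9 was at 15.9 to 17.2 FPKM at day 1 and 17.5 to 20.9 FPKM at day 3 over both siRNA groups and was not called in either.

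Of the procollagen N-proteinases, Adamts2 fell by 1.85 in siCtrl (SE 0.12) and by 1.47 in siPRMT1 cells (SE 0.08), and Adamts14 was at -0.47 in siCtrl cells (SE 0.14, not called) and fell by 0.99 in siPRMT1 cells (SE 0.09). Adamts12, a protease that cuts cartilage oligomeric matrix protein, rose from 15, 16.2 and 10.9 to 30.9, 34.2 and 31.1 FPKM in siCtrl cells (1.13, SE 0.13) and from 13.3, 12.8 and 11.4 to 31.1, 32.8 and 33.9 FPKM in siPRMT1 cells (1.37, SE 0.07). Adamtsl4, an ADAMTS-like protein that binds fibrillin-1 microfibrils, fell in both groups (-1.24, SE 0.14, and -0.71, SE 0.09). Adamts10, a protease of the fibrillin microfibrils, was not called in any comparison, with all 12 libraries between 5.47 and 7.10 FPKM. Mmp19 and Mmp11 were likewise not called in any comparison, and Adamtsl5 moved only under the fold limit.

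Of the rarer members, Adamts6 was called lower in both groups (-1.49 and -1.26) and Adamtsl3 lower in siCtrl cells (-1.52). In siPRMT1 cells, Adamts16 was called lower (-2.14) and Mmp15, a membrane-type MMP, higher (1.28). Adamtsl2 was called higher in siCtrl cells (1.25). Adamts16 in siCtrl cells and Adamtsl2 in siPRMT1 cells did not pass the filter on low counts. Neither call was therefore shown to be particular to 1 siRNA group. In siCtrl cells, Adamts16 had 23, 6 and 11 counts at day 1 and 2, 4 and 4 at day 3. Mmp23 was called higher in siPRMT1 cells (1.08, SE 0.13) and was at 0.48 (SE 0.14) in siCtrl cells.

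**Figure D5:**
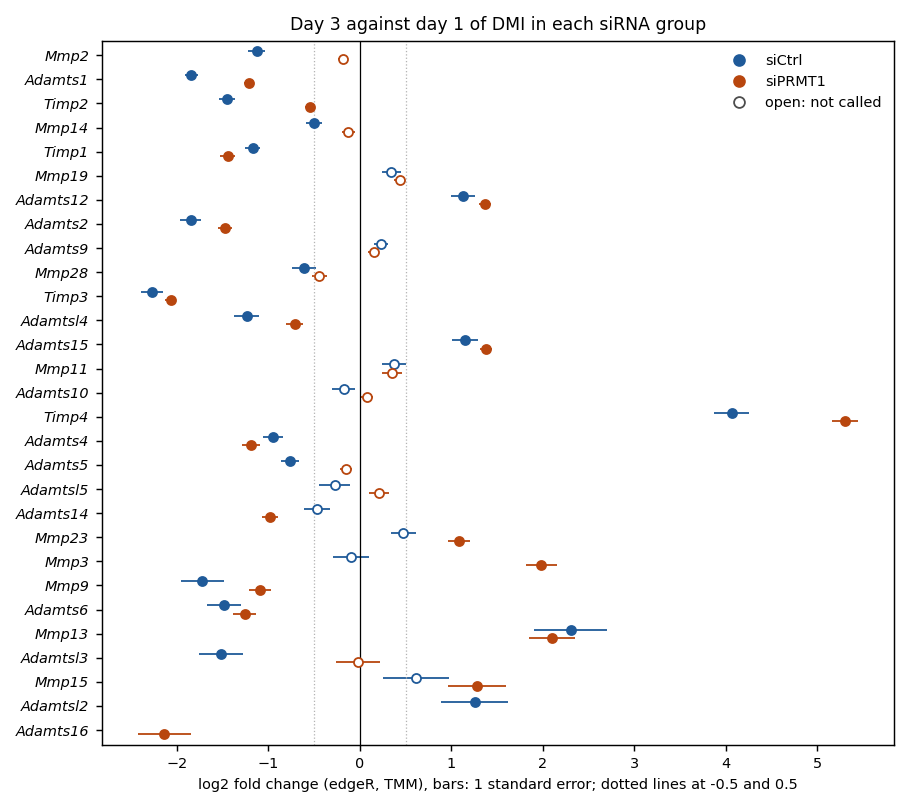
Log2 fold change of day 3 against day 1 in siCtrl (blue) and siPRMT1 cells (brown) for the same 29 members; bars are 1 standard error, filled points are called and dotted lines mark 0.5 and -0.5. Timp4 stands far to the right at 4.07 and 5.31, and the gap between the groups is widest for Mmp3 (-0.10 and 1.98).

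Genes that work with these proteases were taken from 4 lists, whose counts stand beside the shares of all genes tested that were called higher and lower, 1.95% and 1.61% at day 1 and 2.84% and 3.8% at day 3. The counts at an unadjusted p under 0.05 given for these lists were not taken over all genes. Of 5 activators of pro-MMPs that could be tested (of 10 listed), none was called at day 1 with edgeR (2 at an unadjusted p under 0.05, both higher, and none with DESeq2), and 2 were called higher and none lower at day 3. Both make plasminogen activators: Plau at 0.77 (SE 0.15, adjusted p = 0.0030), and Plat at 0.55 (SE 0.11, adjusted p = 0.0027). Of 9 tested genes listed as other inhibitors and clearance factors, none was called at day 1 with edgeR or DESeq2. At an unadjusted p under 0.05 from edgeR, 4 passed, 1 higher and 3 lower. The 3 lower ones, named after their values were seen, were Reck, Tfpi2 and Bsg. Bsg stands in this list but is no inhibitor of MMPs. At day 3, Thbs1 (0.63, SE 0.09, adjusted p = 1.3e-04) and Serpine2 (0.53, SE 0.07, adjusted p = 1.8e-04) were higher. Tfpi2 (-0.70, SE 0.19, adjusted p = 0.022) was lower at day 3, but not with DESeq2. Thbs1 encodes thrombospondin 1, Serpine2 an inhibitor of plasminogen activators and thrombin, and Tfpi2 an inhibitor of plasmin.

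Of 15 related metalloproteinases tested, none was called at day 1 with edgeR (4 at an unadjusted p under 0.05, 3 higher and 1 lower, and 1, Pappa2, called higher with DESeq2 and named after its value was seen), and Pappa (0.80, SE 0.08, adjusted p = 1.3e-05), which cuts IGF-binding proteins, and Adam23 (0.69, SE 0.07, adjusted p = 1.6e-05), which lacks protease activity, were higher at day 3. Among matrix substrates, 1 of 15 was lower at day 1, the basement membrane protein Nid2 (-0.64, SE 0.11, adjusted p = 0.016). At day 3, 3 of 13 were higher: Matn4 (0.91, SE 0.15), Fbn1, which encodes fibrillin-1 (0.57, SE 0.07), and Matn2 (0.51, SE 0.07), with adjusted p of 6.3e-04, 3.7e-05 and 8.2e-05. The medians of the 4 lists at day 3 were 0.13, 0.43, 0.07 and 0.17, in the order given, beside 0.0073 for all genes tested.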

How the data were processed

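The authors used cutadapt 1.11 for trimming and HISAT2 2.1.0 for mapping, and the submitters' processing notes also list RSEM 1.2.6 and mm10. The deposited counts are whole reads per gene without normalization, with RefSeq names and GRCm38 positions; the counting tool, strand setting and handling of multiply mapped reads are not given in the sources used here. Their deposited FPKM values follow from these counts, the gene lengths and the library totals (largest difference on recomputing 0.005).

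Each comparison was fitted over all genes with edgeR 4.0.16 (R 4.3.3): TMM normalization, filterByExpr (minimum count 10), quasi-likelihood F test, Benjamini-Hochberg adjustment; SE is the size of the log2 fold change over the root of F. Knockdown and course used 6 libraries, the interaction 12. The test was checked on simulated data. Alternatives were RLE, DESeq2 1.42.0, other count filters, the replicate number as a block, no fold limit, limma 3.58.1 on log2(FPKM + 1) or log2(FPKM + 0.1), 1 model over 12 libraries, and each library left out. Members, lists and the naming rule (members of at least 1 FPKM, other called members, Prmt1, and up to 3 called genes per pathway list and day) were chosen with earlier results of these data known. All columns were used; RefSeq promoters matched 36 members.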

Additional observations from a re-analysis of the deposited data

Results flagged for a closer look

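The 8 members here stand out because their response to siPRMT1 differed between day 1 and day 3 in the test of that difference (edgeR, 12 libraries). The values are log2 fold changes at day 3 minus those at day 1: 2.08 for Mmp3, 0.95 for Mmp2, 0.91 for Timp2, 0.63 for Adamts1, 0.62 for Adamts5, 1.24 for Timp4, 1.51 for Adamtsl3 and -1.69 for Adamtsl2. Mmp3 was the only one of them called at both days, in opposite directions. Mmp2, Timp2, Adamts1, Mmp3 and Timp4 passed in every alternative fit that tested them. Adamts5 was not called by the limma fits on log2(FPKM + 1), Adamtsl3 not without siPRMT1 replicate 2 of day 3, and Adamtsl2 in 6 of 12 fits with a library left out. The library siCtrl replicate 3 of day 1 stood apart, as given above. A test for single outlying libraries was not made, since groups of 3 are too small for one.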

How the results depend on the processing

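With 3 libraries a group and few counts in the rarer genes, the counts of called members moved with the settings; the cause was not tested. At day 1, 2 members were called higher, but 1 with DESeq2, with at least 10 counts in every library, and in each limma fit; 2 were lower, but 4 without the fold limit or with 12 libraries in 1 model, and 1 in each limma fit. At day 3, 4 were higher, but 11 without the fold limit and 2 with limma without a filter; none was lower, but 2 without the fold limit. For the course in siCtrl cells, 5 were higher, but 9 without the fold limit and 3 with at least 10 counts or limma on log2(FPKM + 1), with and without a filter. For the interaction, the 1 lower member became 0 without a count filter and in the limma fits on log2(FPKM + 1).

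Leaving out 1 library gave 1 to 2 members higher and 0 to 4 lower at day 1 (4 without siCtrl replicate 3, 0 without siPRMT1 replicate 1 or 3), and 3 to 9 higher and 0 to 0 lower at day 3. It gave 4 to 6 higher and 12 to 16 lower for the course in siCtrl, 7 to 7 and 11 to 12 in siPRMT1, and 6 to 9 and 0 to 2 for the interaction. Over all genes, it gave 61 to 504 higher and 62 to 369 lower at day 1, the most without siCtrl replicate 3. At day 3, it gave 322 to 400 and 439 to 574, and for the interaction 504 to 902 and 305 to 1005. For the course, it gave 2768 to 3435 and 2798 to 3203 in siCtrl, and 2672 to 2749 and 2445 to 2535 in siPRMT1. No called value changed sign among 2312 values under alternatives.

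With the replicate number as a block, 2 members were higher and 3 lower at day 1, 5 and 0 at day 3, and 9 and 2 for the interaction, and the courses kept their counts. Same-numbered libraries did not deviate together throughout (r from -0.17 to 0.22), so the numbers were not taken as pairs. Over all genes, limma on log2(FPKM + 1) called 339 higher and 533 lower for the interaction, where edgeR called 697 and 507, and 166 and 80 at day 1, where edgeR called 267 and 220. Counts at day 3 were 144 and 244 against 399 and 534. With the replicate block, edgeR called 296 and 240 at day 1, 426 and 548 at day 3, and 735 and 542 for the interaction. Genes with few counts are limited by depth.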
